A study of Gallus gallus with 2 samples.

Results

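Secreted Wnt inhibitors and R-spondins tune how strongly cells respond to Wnt ligands, and their mRNAs were measured here by RNA sequencing in chick limb bud tissue kept with vehicle or with thalidomide. The genes were chosen by symbol from a list of 9: FRZB, SFRP1, SFRP2, DKK1, DKK2, DKK3, WIF1, RSPO2 and RSPO3. Of these, 8 had a row under their symbol, each with 1 annotated locus, among 16759 genes left after rows of one symbol were summed. No row carries the symbol DKK1. A row with the symbol Dkk-1 is described apart and is not counted as a member.

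Limb buds of chick embryos at Hamburger-Hamilton stage 22 (day 4 of incubation) had been taken off surgically, cut into pieces and divided between the treatments. One library came from pieces with vehicle (5% DMSO) and the other from pieces with thalidomide at 40 µg/ml, both after 4 h at 37 °C. Thalidomide is a sedative that disturbs limb development in the embryo. The labels do not say how many embryos gave the tissue, whether wing and leg buds were mixed, or whether DMSO was also in the thalidomide medium. With 1 library for each treatment there is no replicate error and no p-value, so each value below describes these libraries.

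Levels are FPKM (fragments per kilobase of transcript, scaled for depth) as deposited, with the deposited lower and upper confidence limits. Those limits cover counting and assignment of fragments within a library, not differences between tissue samples. Log2 ratios are thalidomide over vehicle after 1 was added to each FPKM, which understates the difference of low genes, and ± is 1 error propagated from the limits. The inferred fragments summed to 23348285 with vehicle and 23267410 with thalidomide, and 10915 genes with at least 1 FPKM in at least 1 library were kept, all 8 members among them. The median log2 ratio of the kept genes was −0.05, with quartiles of −0.19 and 0.11, and 59% of them had a ratio below 0. FPKM totals were 426632 with vehicle and 384280 with thalidomide. PRRX1, a defining transcription factor of limb mesenchyme, had 217 FPKM with vehicle and 185 with thalidomide. HOXA11 and HOXA13 are listed at 0 in both libraries, with limits of 0. A listed 0, here and below, is not read as absence of the RNA, and its cause was not tested.

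Wnt ligands signal by joining a Frizzled receptor to a co-receptor, LRP5 or LRP6, which stabilises beta-catenin in the receiving cell. FRZB and the SFRPs carry a domain like the ligand-binding part of Frizzled and bind Wnts outside the cell. WIF1 also binds Wnts, through a domain of another kind, whereas the Dickkopf proteins DKK1 and DKK2 act on the LRP co-receptor. R-spondins work the other way: they remove the ligases ZNRF3 and RNF43, which otherwise clear Frizzled from the cell surface, and can do so with receptors of the LGR family. In limb buds Wnt signals act in the ectoderm and its apical ridge and hold back cartilage formation in the mesenchyme beneath.

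All 8 members had lower deposited FPKM in the thalidomide library, a direction that DKK3 alone lost when the libraries were rescaled. For the 7 others the deposited intervals of the libraries did not overlap. Of all kept genes, 26.9% were lower with separate intervals and 15.5% were higher, against 0 members that were higher. With both libraries rescaled to equal FPKM totals these shares were 10.4% lower and 32.1% higher, and 6 members were lower with separate intervals. DKK3 and RSPO3 had overlapping intervals on that scale. The members' log2 ratios ran from −0.51 to −0.13, with a median of −0.34. On the FPKM + 1 scale 4 members (FRZB, SFRP1, SFRP2 and DKK2) were at least 20% lower, as were 8.7% of the kept genes, and 0 members were at least 25% higher, as were 6.14%. After rescaling to equal FPKM totals FRZB alone was that much lower, as were 2.57% of the genes kept on that scale. None of the 8 members reached 1.5-fold in either direction, which 0.971% of kept genes did downward and 0.953% upward. In tissue of mixed cell types, fewer cells of a type and less RNA per cell cannot be told apart.

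**Figure D1:**
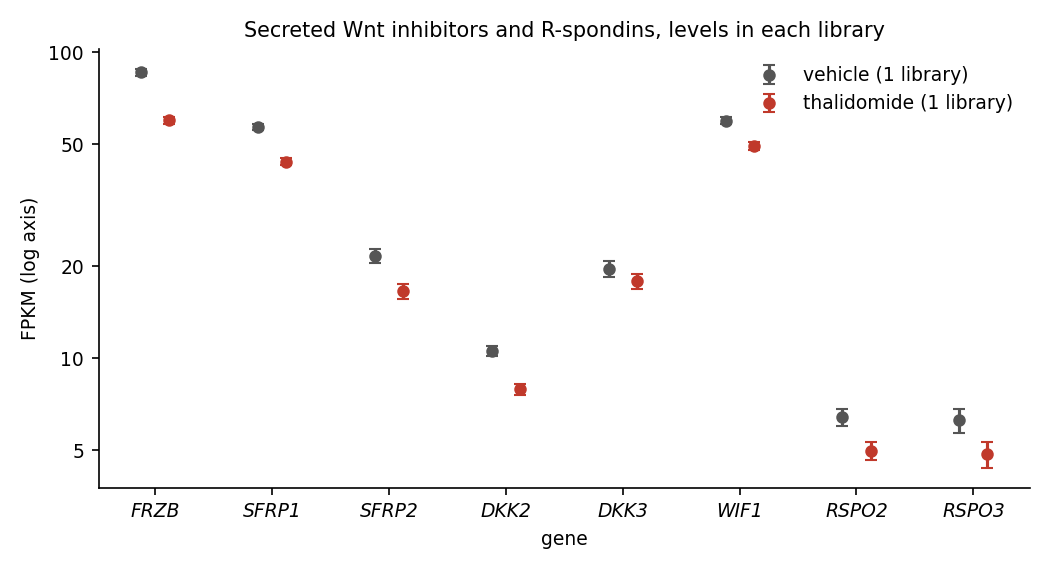
FPKM of the 8 members (horizontal axis) on a log axis, with a grey point for the vehicle library and a red point for the thalidomide library; bars are the deposited confidence limits. FRZB stands highest in both libraries at 86.1 and 59.9 FPKM, and only the bars of DKK3 overlap between the libraries.

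FRZB, the Frizzled-related Wnt binder known from forming cartilage, had the highest level and the largest difference among the members. Its FPKM was 86.1 with vehicle (limits 84.0 to 88.1) and 59.9 with thalidomide (58.3 to 61.6), from 6802 and 5241 inferred fragments. The thalidomide value was 30.4% lower, a log2 ratio of −0.51 ± 0.03, and the intervals lay far apart. Of the kept genes, 1.63% had a ratio as low or lower. FRZB lies on chromosome 7 from 2280810 to 2296210, in the coordinates of the files, whose build is galGal4 by the submitters' processing notes. Among the 1308 genes with a mean level within 2-fold of that of FRZB, whose median log2 ratio was −0.17, 2.22% were as low or lower.

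SFRP1, a secreted Frizzled-related protein (chromosome 22, 2563995 to 2574099), had 57.2 FPKM with vehicle (55.9 to 58.5) and 44.0 with thalidomide (42.9 to 45.1). These values rest on 7393 and 6143 inferred fragments, and the log2 ratio was −0.37 ± 0.02. SFRP2, its close relative (chromosome 4, 19535952 to 19539594), had 21.6 FPKM (20.5 to 22.7) with vehicle and 16.6 FPKM (15.6 to 17.5) with thalidomide. Its log2 ratio of −0.36 ± 0.05 lay beside that of SFRP1, so that the level of SFRP1 over SFRP2 was 2.65 with vehicle and 2.66 with thalidomide. Both genes had separate intervals, with the thalidomide library low in each.

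WIF1, which binds Wnt ligands through its WIF domain (chromosome 1, 33841539 to 33883296), had 59.8 FPKM with vehicle (58.1 to 61.5) and 49.4 with thalidomide (47.9 to 50.9). It was 17.5% lower, at −0.27 ± 0.03, and its intervals did not overlap. The 1736 genes within 2-fold of the level of WIF1 had a median log2 ratio of −0.15, below that of all genes, and 21.4% of them were as low as WIF1 or lower.

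Of the Dickkopf genes, DKK2 (chromosome 4, 37660752 to 37705773) had 10.6 FPKM with vehicle (10.2 to 10.9) and 7.90 with thalidomide (7.58 to 8.23), from 2826 and 2373 inferred fragments. It was 25.1% lower, with a log2 ratio of −0.38 ± 0.04 and separate intervals. DKK3 (chromosome 5, 7580064 to 7602305) is the divergent member of the family and does not act on LRP as the others do. Its FPKM of 19.6 with vehicle (18.5 to 20.7) and 17.9 with thalidomide (16.8 to 18.9) gave overlapping intervals and a log2 ratio of −0.13 ± 0.06. The inferred fragments of DKK3 numbered 1194 and 1180, and 35.6% of kept genes had a ratio as low or lower.

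The row with the symbol Dkk-1 (chromosome 6, 9764380 to 9766014) had 2.47 FPKM with vehicle (1.69 to 3.25) and 1.47 with thalidomide (0.87 to 2.07). It rested on 40 and 24 inferred fragments, the intervals overlapped, and the log2 ratio was −0.49 ± 0.24. RefSeq's chicken gene table (GRCg7b) holds all 8 members under these symbols but no gene named DKK1, and it places a gene named DKK4 on chromosome 6, so the identity of this row rests on the symbol in the files. DKK1, an inhibitor made in the apical ridge and in dying limb tissue, has been linked in earlier chick work to thalidomide. The Dkk-1 row was 40.4% lower in the thalidomide library, within overlapping intervals. This value, on 40 and 24 inferred fragments, was not compared with that earlier work in direction or size.

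The R-spondins had the lowest levels of the 8 members. RSPO2 (chromosome 2, 131277175 to 131326213), which is expressed in the apical ridge in mouse and needed there for normal limbs, had 6.43 FPKM with vehicle (6.02 to 6.84) and 4.99 with thalidomide (4.64 to 5.33). Its log2 ratio was −0.31 ± 0.06 on 965 and 846 inferred fragments. RSPO3 (chromosome 3, 58726123 to 58785427) had 6.26 FPKM (5.71 to 6.82) with vehicle and 4.84 FPKM (4.38 to 5.31) with thalidomide, at −0.31 ± 0.08 on 510 and 430 inferred fragments. Both pairs of intervals were separate as deposited. Those of RSPO3 overlapped after rescaling to equal FPKM totals, and both pairs did on the scale of nuclear genes without haemoglobins. The level of RSPO2 over RSPO3 was 1.03 in each library. For genes within 2-fold of these levels the median log2 ratio was 0.004 in both cases. Of those genes, 6.61% were as low as RSPO2 or lower, and 6.58% as low as RSPO3 or lower.

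**Figure D2:**
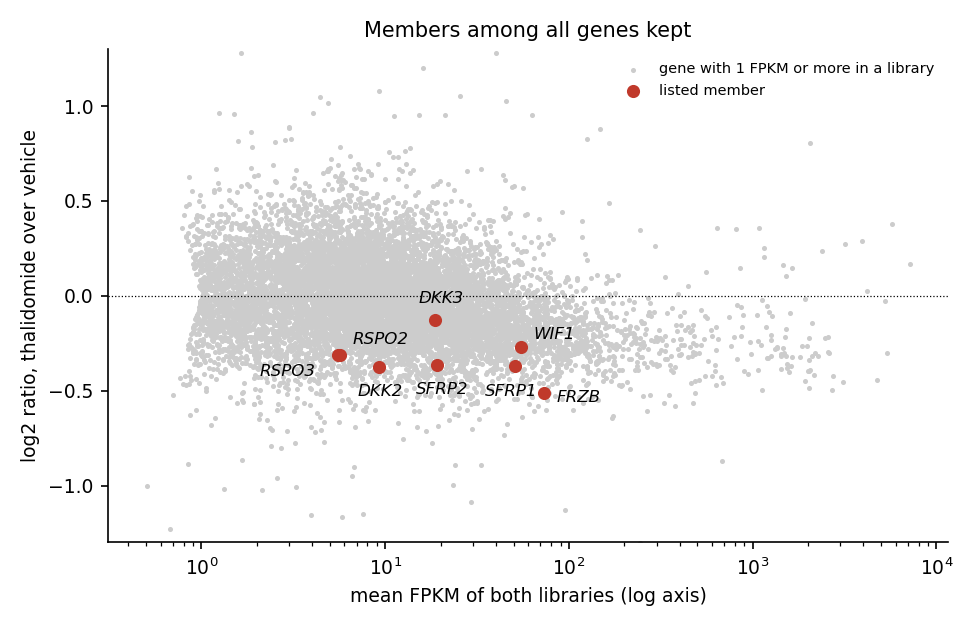
Log2 ratio of thalidomide over vehicle against mean FPKM (log axis) for the 10915 genes kept (grey), with the 8 members in red; 42 genes lie outside the drawn range. Each member lies below 0 as deposited (DKK3 lies above 0 when rescaled), with FRZB lowest at −0.51 and DKK3 nearest to the bulk of the genes at −0.13.

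The order of the levels was nearly the same in both libraries. With vehicle it ran FRZB, WIF1, SFRP1, SFRP2, DKK3, DKK2, RSPO2 and RSPO3. The neighbours WIF1 and SFRP1, SFRP2 and DKK3, and RSPO2 and RSPO3 had overlapping intervals there. With thalidomide DKK3 stood above SFRP2, again with overlapping intervals, and WIF1 lay 1.12 times above SFRP1 with intervals that were separate. RSPO2 and RSPO3 overlapped again. The lead of FRZB over WIF1 was 1.44 times with vehicle and 1.21 times with thalidomide.

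Summed over FRZB, SFRP1, SFRP2, WIF1, DKK2 and DKK3, inhibitor FPKM was 255 with vehicle and 196 with thalidomide, 23.2% lower. RSPO2 and RSPO3 together had 12.7 and 9.83 FPKM, 22.6% lower. These inhibitors therefore had 20.1 times the FPKM of these R-spondins with vehicle and 19.9 times with thalidomide. RSPO1, at 2.12 and 2.92 FPKM, RSPO4, at 3.88 and 3.07 FPKM, and inhibitors outside the members are not in these sums. The near-equal ratios therefore hold for the members only. The share of FRZB in the inhibitor sum was 33.8% with vehicle and 30.6% with thalidomide. WIF1 made up 23.5% and 25.2% of that sum.

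A ratio between members within a library does not depend on a factor common to all genes of that library. Differences between members were therefore set out as differences of their log2 ratios without an added constant. They do change under the share of inferred fragments, for which no pair intervals were computed. Of 28 pairs of members, 14 had an interval of 2 errors that held 0. FRZB differed in this sense from 6 of the 7 others, all but RSPO3. The interval came close to 0 for FRZB less SFRP2 (−0.26 to −0.02), less DKK2 (−0.20 to −0.01) and less RSPO2 (−0.30 to −0.01). FRZB less SFRP1 was −0.14 (interval −0.22 to −0.07), and FRZB less WIF1 was −0.24 (−0.32 to −0.17). DKK3 differed from all 7 others, with DKK2 less DKK3 at −0.28 (−0.43 to −0.14) and DKK3 less RSPO2 at 0.23 (0.05 to 0.41). Its interval came close to 0 against WIF1 (0.01 to 0.27) and RSPO3 (0.01 to 0.46). Of the 15 pairs with neither FRZB nor DKK3, 13 held 0. The exceptions were WIF1 with SFRP1 (SFRP1 less WIF1 −0.10, interval −0.18 to −0.03) and WIF1 with DKK2 (DKK2 less WIF1 −0.14, −0.24 to −0.04). For RSPO2 less RSPO3 the interval ran from −0.23 to 0.24, and for SFRP1 less SFRP2 from −0.12 to 0.12. These intervals hold no replicate error. The same count over pairs drawn from all kept genes was not made, so it is not known whether the members' counts are unusual. As deposited, 42.4% of all kept genes had separate intervals in either direction.

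Other genes of the same families did not all have the direction of the members. RSPO1, the R-spondin known for its role in the ovary, had 2.12 FPKM with vehicle and 2.92 with thalidomide (0.33 ± 0.11, on 148 and 207 inferred fragments). Its intervals were separate, with the thalidomide library high, in contrast to RSPO2 and RSPO3. The level of RSPO1 over RSPO2 was 0.329 with vehicle and 0.585 with thalidomide, a difference of log2 ratios of 0.83 (interval 0.49 to 1.17). RSPO4, known for its role in human nail growth, had 3.88 and 3.07 FPKM (−0.26 ± 0.15) with overlapping intervals.

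SFRP4 had 5.66 FPKM with vehicle and 6.27 with thalidomide (0.12 ± 0.08), and its own intervals overlapped. Against SFRP1, however, the difference of log2 ratios was 0.53 (interval 0.34 to 0.71). SFRP5 stayed under the filter, with 0.526 and 0.672 FPKM on 17 and 22 inferred fragments. SOSTDC1, a secreted inhibitor of Wnt and BMP signals, had 7.65 and 6.996 FPKM (−0.11 ± 0.09), and SOST, sclerostin, had 1.26 and 1.246 FPKM (−0.01 ± 0.22). Intervals overlapped for both. The pairs with RSPO1 and SFRP4 were picked out after their values were seen.

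**Figure D3:**
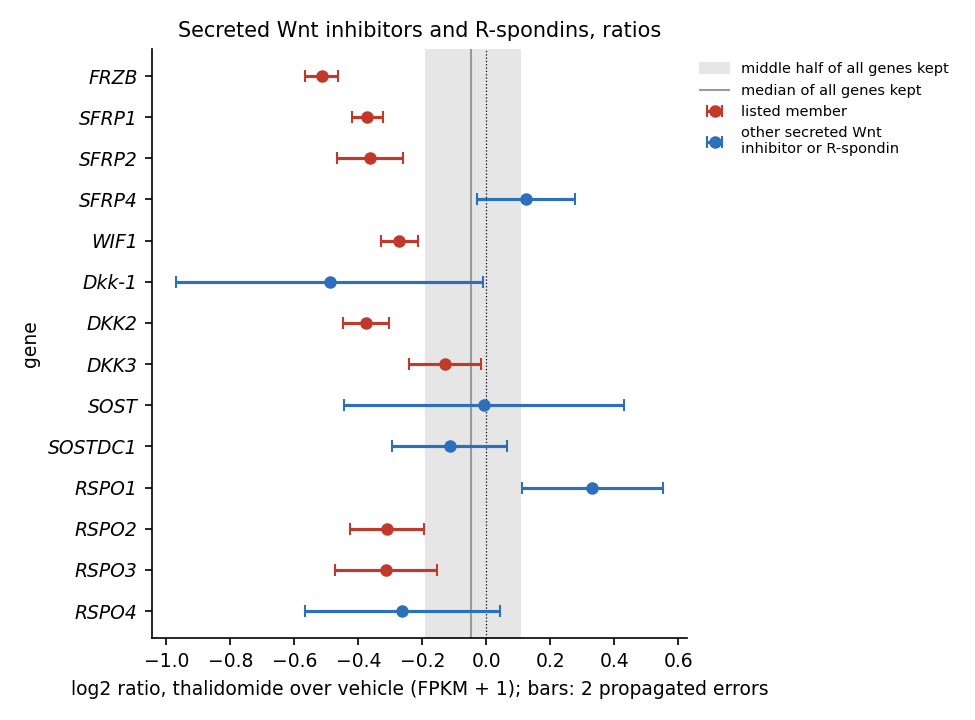
Log2 ratio of thalidomide over vehicle for the 8 members (red) and 6 other secreted Wnt inhibitors or R-spondins (blue); bars are 2 propagated errors, the grey band spans the quartiles of all kept genes and the grey line their median of −0.05. RSPO1 at 0.33 lies opposite RSPO2 and RSPO3, both at −0.31, and SFRP4 at 0.12 lies opposite SFRP1 at −0.37.

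The rest of the Wnt pathway was described from lists of 90 symbols, of which 62 were matched to a gene that passed the filter. As deposited, 18 of these 62 genes were above 0 and 44 below, against 8 of 8 members below. Rescaling both libraries to equal FPKM totals made that 30 above and 32 below, while the share of all kept genes below 0 went from 59% to 34.8%. The median of all genes was 0.08 after this rescaling, a move of over 0.1 on the log2 scale. The list of other secreted inhibitors and agonists had 9 kept genes, 7 of them below 0 as deposited and 3 after rescaling. Its most abundant gene, IGFBP4, an IGF-binding protein that also blocks Wnt receptors, had 141 and 109 FPKM (−0.37 ± 0.04). The inhibitor CER1 is listed at 0 in both libraries.

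Wnt ligands were below 0 in all 10 kept genes as deposited, with a median of −0.24, beside 59% of all kept genes. Intervals were separate for 4 ligands, all lower, as they were for 26.9% of all kept genes. Of these 10, WNT2B and WNT3 passed the filter through the vehicle library alone, which favours a ratio below 0. Among the 7 ligands under the filter, WNT7A, WNT9B and WNT11B were above 0. The others there, WNT3A, WNT7B, WNT8B and WNT8C, were below 0. WNT6, a ligand of limb ectoderm, was lowest at 23.2 and 16.8 FPKM (−0.44 ± 0.07). WNT5A, the most abundant and a ligand that guides outgrowth, had 55.2 and 48.4 FPKM (−0.18 ± 0.03), and WNT3 was highest at −0.15 ± 0.15. After rescaling to equal totals all 10 were still below 0, beside 34.8% of all kept genes. After rescaling to nuclear genes without haemoglobins 9 were, and WNT5A stood at 0.002.

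Frizzled receptors, LRPs and co-receptors were below 0 in 10 of 14 kept genes as deposited and in 7 after rescaling to equal totals. The shares of all kept genes below 0 were 59% and 34.8%. FZD2 was the most abundant, with 150 and 121 FPKM (−0.31 ± 0.03), and FZD7 was lowest at −0.35 ± 0.03. FZD6 had 5.63 and 6.68 FPKM (0.21 ± 0.04) and was the only gene of this list higher with separate intervals. The co-receptors that Dickkopf proteins bind had values above 0 with overlapping intervals, LRP5 at 0.14 ± 0.05 and LRP6 at 0.07 ± 0.05. KREMEN1, a receptor that works with Dickkopf proteins, had 3.33 and 2.43 FPKM (−0.34 ± 0.12). Its intervals were narrowly separate as deposited (lower limit 2.84 with vehicle, upper limit 2.82 with thalidomide) and overlapped after rescaling to equal totals.

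Genes through which R-spondins can act went both ways. LGR5 had 28.01 FPKM with vehicle and 20.2 with thalidomide (−0.45 ± 0.02), and its intervals were separate. LGR4, a receptor of the same kind, had 12.5 and 13.2 FPKM (0.07 ± 0.03) with overlapping intervals. LGR6 stayed under the filter with 0.357 and 0.549 FPKM. ZNRF3, a ligase that R-spondins remove, had 4.17 and 5.91 FPKM (0.42 ± 0.07) with separate intervals. RNF43, the related ligase, had 1.20 and 1.72 FPKM (0.31 ± 0.11), and its intervals overlapped. ZNRF3 therefore stood at 0.648 times the level of RSPO2 with vehicle and at 1.18 times with thalidomide. The difference of their log2 ratios was 0.87 (interval 0.65 to 1.09), for a pair that was picked out and not set by a rule. LGR5 stayed below 0 under all scalings tried. LGR4, ZNRF3 and RNF43 stayed above 0, which only the share of inferred fragments could have altered. Centring on the median of all genes and both rescalings raise every ratio.

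Inside the cell, CTNNB1, which encodes beta-catenin, had 278 and 246 FPKM (−0.17 ± 0.01), a direction lost after rescaling to nuclear genes, where it stood at 0.01. DVL1, which passes the signal on from Frizzled, was highest at 4.01 and 7.08 FPKM (0.69 ± 0.05), and PYGO2 of the beta-catenin complex was lowest at −0.31 ± 0.07. Of 15 kept genes in this list, 11 were below 0 as deposited and 6 after rescaling to equal totals. Of all kept genes, 59% and 34.8% were below 0 on these scales.

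Feedback and target genes were divided, 5 of 10 above 0 both as deposited and after rescaling to equal totals. Of all kept genes, 59% and 34.8% were below 0 on these scales. After rescaling to nuclear genes 7 of the 10 were above 0, but on that scale 28.6% of all kept genes were below 0. Their median as deposited was −0.06 beside −0.05 for all genes. AXIN2, a feedback inhibitor widely read as a mark of Wnt signalling, had 7.42 and 8.70 FPKM (0.21 ± 0.05). NKD1, another feedback inhibitor, had 12.2 and 15.4 FPKM (0.32 ± 0.06). Both had separate intervals, with the thalidomide library high. LEF1, a transcription factor that binds beta-catenin (Lef-1 in the files), had 22.04 and 18.3 FPKM (−0.25 ± 0.05), and DACT2, which binds Dishevelled, had 47.1 and 37.0 FPKM (−0.34 ± 0.03). Their intervals were separate too as deposited, with thalidomide low, but those of LEF1 overlapped after rescaling to equal totals. DACT1, the most abundant of this list, had 55.0 and 56.7 FPKM (0.05 ± 0.03) with overlapping intervals.

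**Figure D4:**
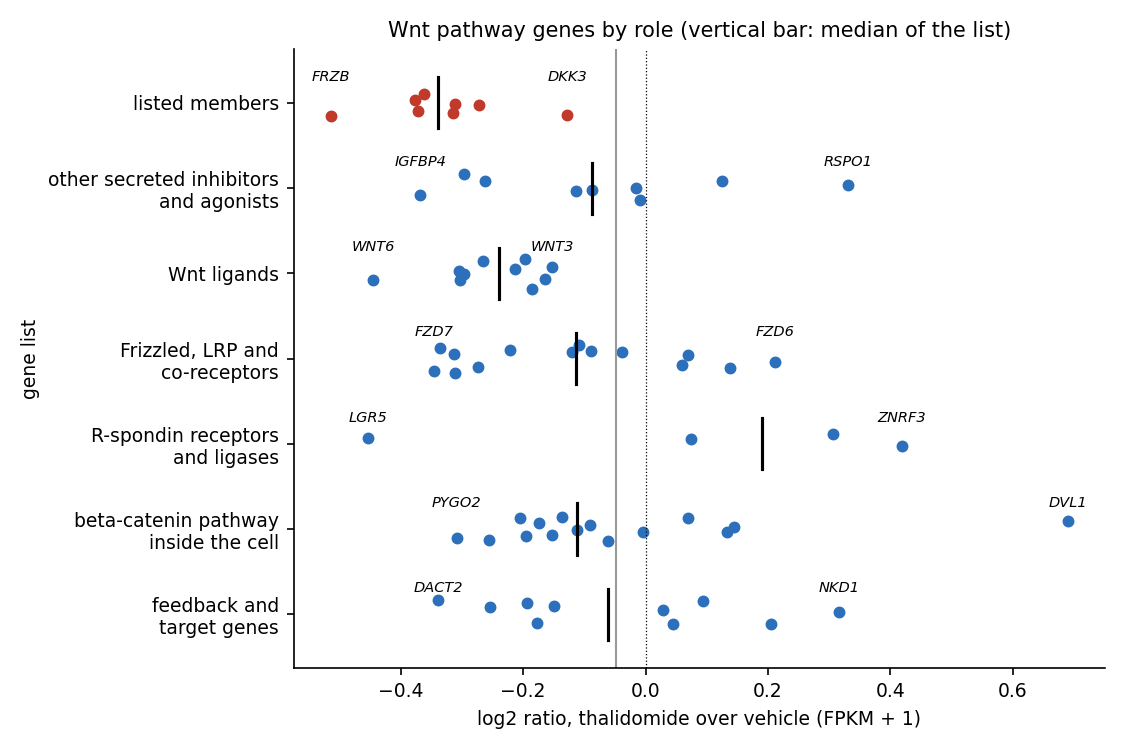
Log2 ratio of thalidomide over vehicle (horizontal axis) of the 8 members and of 62 other Wnt pathway genes by role; the black bar is the median of each row, the grey line the median of all kept genes, and the lowest and highest gene of each row are named. As deposited, all members and all 10 kept ligands lie below 0 (after rescaling, DKK3 and, on nuclear genes, WNT5A do not), while ZNRF3 at 0.42, DVL1 at 0.69 and NKD1 at 0.32 lie above. Of the ligands, WNT2B and WNT3 passed the filter through the vehicle library alone.

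Most markers of the cells that could make these proteins were lower in the thalidomide library as well. Many genes of high level were too. Among genes within 2-fold of the level of COL2A1 the median log2 ratio was −0.26, and 70.5% were as low as COL2A1 or lower. For COL9A2, DCN and LUM the share of genes of like level that were as low or lower was 19.4%, 2.29% and 0.642%. Early cartilage genes, where FRZB is known to be expressed, were below 0 in 14 of 14 kept genes as deposited and in 13 after rescaling to equal totals, beside 59% and 34.8% of all kept genes. Their median as deposited was −0.38, and 13 were lower with separate intervals, as were 26.9% of all kept genes. Over all 16 cartilage genes with a row, summed FPKM was 1064 with vehicle and 859 with thalidomide. COL2A1, the cartilage collagen, had 498 and 439 FPKM (−0.18 ± 0.01), COL9A2 had 109 and 87.2 FPKM (−0.32 ± 0.02), and the regulator SOX9 had 21.1 and 20.3 FPKM (−0.05 ± 0.03) with overlapping intervals. Joint and connective tissue genes were below 0 in 7 of 7 (6 after rescaling), with a median of −0.41 and a summed FPKM of 244 and 171, led by DCN at 99.8 and 69.0 FPKM and LUM at 67.5 and 43.0 FPKM. The part of these cells in the lower values of FRZB, the SFRPs, WIF1 and DKK2 was not tested.

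Of 16 kept genes of limb mesenchyme, 13 were below 0 as deposited and 11 after rescaling to equal totals (median −0.22 as deposited), with a summed FPKM of 1196 and 1014. Of all kept genes, 59% were below 0 as deposited and 34.8% after this rescaling, which also holds for the ridge and ectoderm counts below. HOXD13, which patterns the distal limb, led them at 264 and 222 FPKM. Of genes within 2-fold of its level, 49.1% had a ratio as low or lower, and for PRRX1 this share was 52.3%. TBX5 and TBX4, which mark wing and leg buds, went the other way with separate intervals, TBX5 at 22.5 and 26.4 FPKM (0.22 ± 0.03) and TBX4 at 16.4 and 18.5 FPKM (0.16 ± 0.06). HOXD11 had 46.9 and 48.8 FPKM (0.06 ± 0.05) with overlapping intervals. Ridge markers, which bear on RSPO2 and Dkk-1, were below 0 in 4 of 4 kept genes, as deposited and after rescaling to equal totals (median −0.31 as deposited). The 7 ridge genes with a row, 3 of them under the filter, had 24.2 and 19.2 FPKM in sum. BAMBI and CD44 were the most abundant of them, at 9.52 and 7.46 FPKM and at 8.72 and 6.91 FPKM. FGF8, which defines the ridge, was under the filter with 0.775 and 0.765 FPKM (−0.01 ± 0.20), on 19 inferred fragments in each library. So were FGF9, with 0.486 and 0.484 FPKM (−0.002 ± 0.07), and FGF4, with 0 and 0.065 FPKM on 0 and 1 inferred fragments. FGF8 and FGF9 lay near 0 with overlapping intervals, and the count of 4 kept ridge genes includes none of the FGF genes. Ectoderm genes were below 0 in 7 of 10, as deposited and after rescaling to equal totals (median −0.21 as deposited). As deposited this count lies near the 59% of all kept genes. Their FPKM summed to 189 and 152, led by KRT19 at 56.8 and 46.1 FPKM and CLDN1 at 44.4 and 31.2 FPKM. The other 3, TP63, CLDN4 and GRHL3, lay between 0.002 and 0.10 with overlapping intervals. The part of ridge and ectoderm cells in the values of the R-spondins was not tested either.

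By distance in log2(FPKM + 1) over the 2 libraries, a likeness that rests on 2 values, the gene nearest to FRZB was TWIST1, a transcription factor also on the limb mesenchyme list, with 86.3 and 60.6 FPKM at a distance of 0.02. COX7C, a subunit of respiratory complex IV, followed with 88.5 and 61.8 FPKM at 0.06, and SPOCK3, a secreted proteoglycan, with 90.4 and 59.2 FPKM at 0.07.

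The size of the members' difference depended on how the libraries were scaled, and for DKK3 the direction did too. With both libraries rescaled to equal FPKM totals, the log2 ratio of FRZB was −0.37 and that of DKK3 was 0.02. On the scale of nuclear genes without haemoglobins these values were −0.33 and 0.05. The remaining 7 members stayed below 0 under every scaling tried, WIF1 nearest to 0 at −0.09. Relative to the median of all genes, the members' median was −0.29 as deposited and −0.28 after either rescaling. A rescaling applies a common factor to all genes of a library, so these values could differ only through the constant added to FPKM. Mitochondrially encoded transcripts took 8.94% of the vehicle FPKM total and 11.3% of the thalidomide total.

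**Figure D5:**
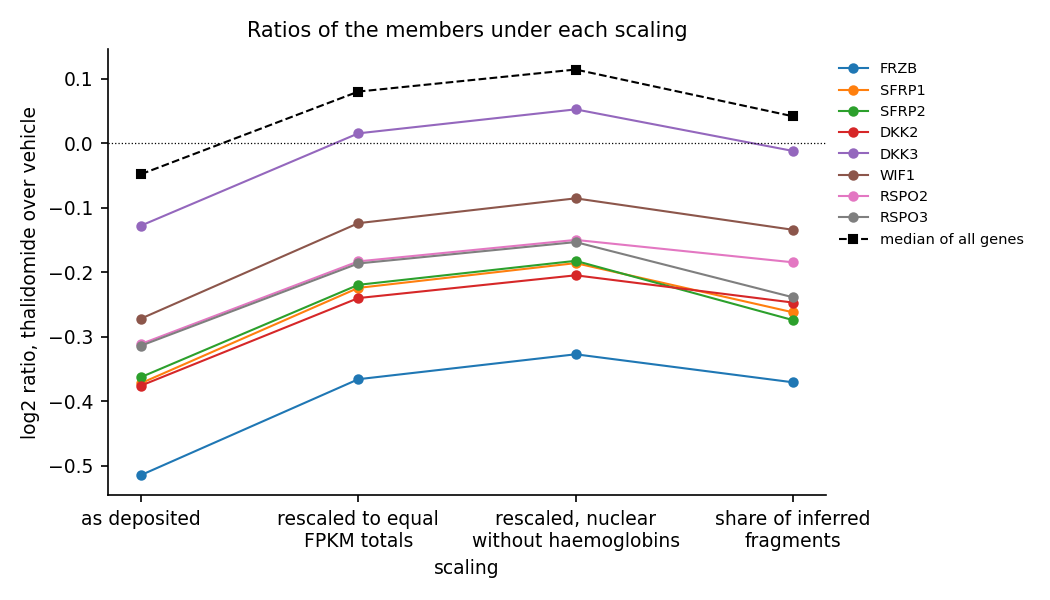
Log2 ratio of thalidomide over vehicle of each member (coloured lines) and the median of all kept genes (black dashes) as deposited, under 2 rescalings of FPKM and as the share of inferred fragments. All members lie higher than as deposited in the other columns, by unequal amounts under the fragment share, where DKK2 passes above SFRP1 and SFRP2. FRZB stays lowest, from −0.51 as deposited to −0.33 at its highest, and DKK3 passes 0 under both rescalings.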

How the data were processed

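RNA sequencing gave 1 library for each treatment. The authors deposited gene-level FPKM values with lower and upper confidence limits, per the file headers. Tools in the submitters' processing notes are Cufflinks 2.2.1, Cuffdiff, STAR 2.4.2a and bcl2fastq, with no roles stated. Whether reads were counted by strand is not known here.

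Rows of one symbol (ignoring case) were summed, genes with at least 1 FPKM in at least 1 library were kept, and log2 ratios were taken after adding 1. An upper limit was read as 2 SD of a count, which gives inferred fragments and the propagated error. Uncertain assignment makes these fragment numbers too low. Listed symbols without a row were matched through RefSeq synonyms (3 pathway and 4 marker genes). The summed FPKM of a list covers all its genes with a row, also those under the filter. Coordinates are the files', counted from 1.

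Named genes were all members, the lowest, the highest and the most abundant gene of each pathway list, 10 receptors, ligases and targets, the 2 most abundant markers of each list with those at 0, and the 3 genes nearest to FRZB; 1 marker that this rule picks is not reported here. Outside this rule SFRP4, SFRP5, RSPO4, SOST, SOSTDC1, CER1, SOX9, FGF8, TBX5, TBX4, HOXD11, TP63, CLDN4 and GRHL3 were named after their values were seen. So were WNT2B, the ligands under the filter, FGF4, FGF9, HBE1, PTPRC, CSF1R, PAX3, MET, MYOG, KDR and NEFL. Members and lists were chosen with earlier results of these data known. Alternatives were the pseudocount, the filter, the scaling, row summing, short loci and the interval and, chosen after seeing the data, the share of inferred fragments. Calculations used Python 3.11.15, numpy 2.4.6 and pandas 2.3.3 and were tested on simulated data.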

Additional observations from a re-analysis of the deposited data

How the results depend on the processing

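Lower with separate intervals were 7 members as deposited, 6 with equal FPKM totals and 5 with nuclear genes without haemoglobins as the total. RSPO3 dropped out with equal totals, and RSPO2 as well with nuclear genes. Of all kept genes, 26.9%, 10.4% and 7.70% were lower in this sense, and 15.5%, 32.1% and 37.7% were higher. The count lower was 7 under each other alternative that gives it. Of those, only the changed interval could have altered this count. The pseudocount does not enter the intervals, and each member has 1 row, no short locus and a level that passes every filter. No member was higher with separate intervals or reached 1.5-fold under any alternative that gives these counts. The members' median log2 ratio was −0.34 as deposited, −0.20 with both libraries rescaled to equal FPKM totals, −0.17 with nuclear genes without haemoglobins as the total and −0.24 as the share of inferred fragments. At least 20% lower were 4 members as deposited, 6 with a pseudocount of 0.1, 3 after centring on the median of all genes, and 1, FRZB, under each of those 3 scalings, beside 8.7%, 11.9%, 5.71%, and 2.57%, 2.03% and 7.10% of all kept genes. Over the settings, FRZB ranged from −0.52 to −0.33, SFRP1 from −0.38 to −0.19, DKK2 from −0.41 to −0.20 and DKK3 from −0.13 to 0.05. With at least 5 FPKM required, RSPO2 and RSPO3 passed through the vehicle library alone. One inferred fragment stood for 0.912 times as much FPKM in the thalidomide library as in the vehicle library over the members (median), and for 0.931 times over 9989 genes with at least 100 fragments in both; the cause was not tested. Depth limits Dkk-1, SOST, SFRP5, FGF4, FGF8, LGR6, CLDN4 and WNT2B, with 40 inferred fragments or fewer in a library. The same holds for the ligands under the filter except WNT7B, and for genes listed at 0. No paired analysis was possible because each treatment has 1 library.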

Other observations

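Markers of cell types not set beside the members above differed among themselves. Haemoglobin and blood cell genes had a median log2 ratio of 0.32 over 9 kept genes, with a summed FPKM of 485 with vehicle and 638 with thalidomide. Of these genes 7 were above 0 and 2 below, where 59% of all kept genes were below 0. HBE1 and PTPRC, both above 0, passed the filter through the thalidomide library alone. CSF1R, at −0.27 with intervals separate as deposited, passed through the vehicle library alone. HBG1 had 215 and 273 FPKM (0.35 ± 0.02) and the alpha globin listed as HBAA had 137 and 193 FPKM (0.49 ± 0.04), while HBZ is listed at 0 in both libraries. Muscle precursor genes were below 0 in 5 of 8 (4 after rescaling to equal FPKM totals), near the 59% of all kept genes as deposited. After this rescaling 34.8% of all kept genes were below 0. MYOD1 had 20.2 and 17.1 FPKM (−0.23 ± 0.05). PAX3, MET and MYOG were above 0 as deposited, with overlapping intervals. Endothelial genes were below 0 in 8 of 10 (5 after rescaling), with ERG, also a joint gene, at 29.3 and 25.6 FPKM and CDH5 at 13.9 and 10.6 FPKM (−0.36 ± 0.04). Of the 2 above 0 as deposited, KDR had separate intervals, at 3.64 and 4.11 FPKM (0.14 ± 0.04). Neural and Schwann cell genes were divided, 3 above and 3 below, with TUBB3 at 71.5 and 58.6 FPKM (−0.28 ± 0.04) and ELAVL4 at 8.20 and 6.37 FPKM (−0.32 ± 0.08). Of the 3 above, NEFL had separate intervals, at 4.87 and 6.17 FPKM (0.29 ± 0.08).

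ZNRF3 and KREMEN1 are neighbours on chromosome 15, from 7788957 to 7795744 and from 7808411 to 7819197, and differed in opposite directions, at 0.42 and −0.34. KREMEN1 stayed below 0 under every scaling tried. ZNRF3 stayed above 0, which only the share of inferred fragments could have altered, because the other scalings raise every ratio.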
